A study of Mus musculus with 2 samples.

Results

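The tricarboxylic acid (TCA) cycle enzymes and the enzymes that feed carbon into the cycle or draw it out were described across a Pkm2-/- and a wild type library of mouse colon epithelial cells. The 30 genes were a fixed list of enzyme symbols, chosen by function. Earlier results of these data were known at that choice, including that TCA genes were slightly higher, so the list gives no independent support. All 30 were listed above 0 in both libraries, out of 22350 gene symbols listed in either. The libraries came from Pkm2-/- and from wild type mice. Both were of the C57BL/6 strain, and both had been given 2.5% dextran sulfate sodium (DSS), which is swallowed and damages the epithelium of the large bowel, for 3 days. There was 1 library per genotype, so no difference below has a replicate check, none was tested and none carries a p-value. How the Pkm2 allele was made, the age of the mice, and whether a library held 1 animal or a pool are not stated in the labels.

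Pkm encodes pyruvate kinase of muscle and most other tissues, and its Pkm2 splice form catalyses the last step of glycolysis in proliferating and epithelial cells. Pyruvate enters the mitochondrion, where the pyruvate dehydrogenase complex turns it into acetyl-CoA, and the cycle oxidises that acetyl group while passing electrons to the respiratory chain. Intermediates leave the cycle for amino acid, lipid and glucose synthesis, and anaplerotic reactions from glutamine, glutamate, aspartate and pyruvate refill it. Colonocytes are known to draw much of their acetyl-CoA from butyrate made by gut bacteria, and absorptive cells of the gut also burn glutamine.

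In these libraries the aspartate transaminase genes Got1 and Got2 had the largest ratios of the 30, and the alanine transaminase gene Gpt had the smallest. Most genes of the mitochondrial cycle and of its entry from pyruvate were slightly higher in the Pkm2-/- library, by 1.05-fold to 1.39-fold. Of the 16 genes outside these steps, 9 were lower and 7 were higher. This division was drawn after the values were seen, and it puts the mitochondrial Idh2 outside. Of the 30 genes, 20 had a log2 ratio above 0 on the scale log2(FPKM + 1), where FPKM is the fragment count per kilobase, divided by the mapped total, and the ratio is Pkm2-/- over wild type. Of the 12429 genes averaging 1 FPKM or more over the libraries, 58.8% lay above 0. The median log2 ratio of the 30 was 0.18, against 0.06 for all these genes, whose quartiles lay at -0.14 and 0.24. Among the 8516 genes averaging between the lowest and the highest of the 30, 62.6% lay above 0, with a median of 0.08. Of the 30 genes, 13 lay above the upper quartile of all genes, 10 between the quartiles and 7 below the lower one.

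Differences were small for most of the genes. Genes were counted as at least 1.5-fold apart on the scale of FPKM + 1, which lessens the ratios of low genes. At least 1.5-fold apart were Got1 and Got2 on the higher side, where 4.46% of all genes lay, and Gpt on the lower side, where 5.29% lay. With equal library medians Got2 had a log2 ratio of 0.567, short of that limit, and Got1 was the 1 gene past it on the higher side. A lower limit of 0.3219 on the log2 scale was passed by 7 genes on the higher side and 1 on the lower side, against 15.7% and 12.2% of all genes. That split depended on how the libraries were scaled, since it was 3 higher and 2 lower with equal library medians, 4 and 2 with equal upper quartiles, and 13 and 1 when each library was scaled to sum to 1000000. Mdh2, at a log2 ratio of 0.3224, lay just inside that limit, and Idh3b, at 0.318, just outside it.

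The libraries held about 21500000 fragments for Pkm2-/- and 18800000 for wild type, estimated from the steps between the lowest values. A transcript of 2 kb at 1 FPKM thus rested on 42.9 fragments in the Pkm2-/- library and 37.7 in the wild type library. The 95% counting intervals given with a ratio are approximate, cover counting error only and say nothing of differences between animals or preparations. Gene-level Pkm, the target, stood at 86.2 FPKM in the Pkm2-/- library and at 281 FPKM in the wild type library. That value sums the splice forms, and 50.9% of the 31-base words of the longest Pkm transcript also occur in transcripts of other genes. Epithelial markers were present in both libraries, with Epcam at 712 FPKM in the Pkm2-/- library and 584 FPKM in the wild type library.

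**Figure D1:**
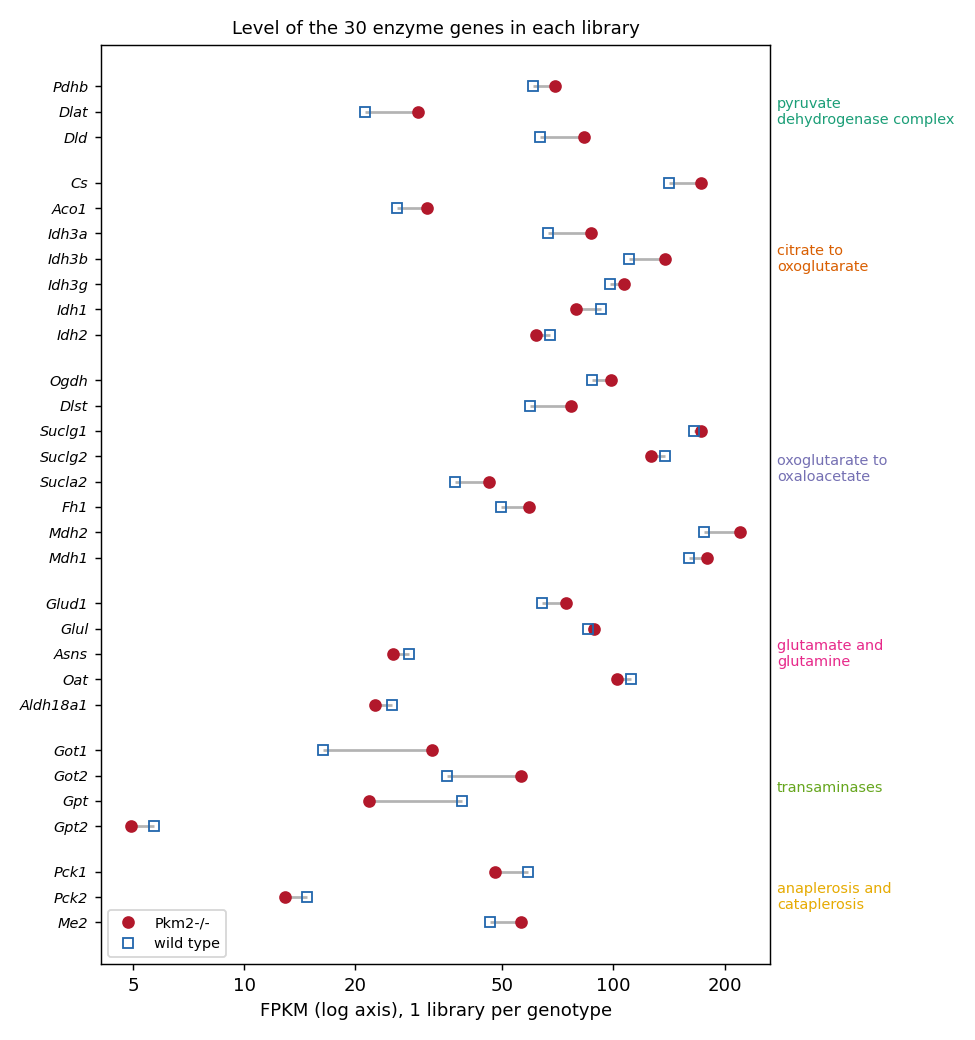
Level of each of the 30 enzyme genes in FPKM (log axis) in the Pkm2-/- library (filled circles) and the wild type library (open squares), grouped by role, with 1 library per genotype. Mdh2 is the highest gene in both libraries and Gpt2 the lowest, and the longest connecting lines belong to Got1, Got2 and Gpt.

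Levels spanned a wide range, and the same genes stood at both ends in each library. Mdh2, the mitochondrial malate dehydrogenase that closes the cycle, was the highest, at 220.03 FPKM in the Pkm2-/- library and 176 FPKM in the wild type library. Gpt2, the mitochondrial alanine transaminase, was the lowest, at 4.95 FPKM in the Pkm2-/- library and 5.68 FPKM in the wild type library. In the Pkm2-/- library 8 of the 30 genes stood above 100 FPKM, and in the wild type library 7 did. FPKM is per length, which permits only a rough comparison of levels between genes. Splice forms limit it, as does sequence shared with other genes, over 10% of the 31-base words of the longest transcript for 4 of the 30. Summed over all 30 genes, the level was 2382 FPKM in the Pkm2-/- library and 2150 FPKM in the wild type library, a ratio of 1.11.

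The pyruvate dehydrogenase complex joins glycolysis to the cycle, and its 3 genes on the list all had log2 ratios above 0. Pdhb, which encodes the beta subunit of the decarboxylating component, stood at 69.6 FPKM in the Pkm2-/- library and 60.6 FPKM in the wild type library, 1.15-fold higher. Dlat, the acetyltransferase core of the complex, stood at 29.5 FPKM in the Pkm2-/- library and 21.2 FPKM in the wild type library, 1.39-fold higher with a 95% counting interval of 1.31 to 1.48. Dld, the dihydrolipoamide dehydrogenase that this complex shares with the oxoglutarate dehydrogenase complex, stood at 83.1 FPKM in the Pkm2-/- library and 63.2 FPKM in the wild type library, 1.31-fold higher with an interval of 1.255 to 1.376. Dlat was thus the lowest of the 3 in level and the highest in ratio, and the Dlat level was 0.424 of the Pdhb level in the Pkm2-/- library and 0.3495 in the wild type library.

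Citrate synthase and the NAD-linked isocitrate dehydrogenase, which carry carbon from acetyl-CoA to oxoglutarate, were all on the higher side. Cs stood at 173 FPKM in the Pkm2-/- library and 142 FPKM in the wild type library, 1.22-fold higher with an interval of 1.18 to 1.26. Idh3a, the catalytic subunit of the NAD-linked enzyme, stood at 86.8 FPKM in the Pkm2-/- library and 66.5 FPKM in the wild type library, 1.31-fold higher. Idh3b, which pairs with the catalytic subunit, stood at 138 FPKM in the Pkm2-/- library and 110.5 FPKM in the wild type library, 1.249-fold higher. The regulatory subunit gene Idh3g moved least of the 3, at 107 FPKM in the Pkm2-/- library and 97.8 FPKM in the wild type library, 1.09-fold higher. Aco1, the cytosolic aconitase that doubles as an iron-responsive RNA-binding protein, was 1.20-fold higher, at 31.2 FPKM in the Pkm2-/- library and 26.0 FPKM in the wild type library.

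The NADP-linked isocitrate dehydrogenases, which make NADPH rather than NADH, lay on the other side. Idh1, the cytosolic and peroxisomal form, stood at 79.3 FPKM in the Pkm2-/- library and 92.6 FPKM in the wild type library, 1.17-fold lower with an interval of 1.12 to 1.22. Idh2, the mitochondrial form, stood at 61.5 FPKM in the Pkm2-/- library and 67.1 FPKM in the wild type library, 1.09-fold lower with an interval of 1.03 to 1.16. The ratio of Idh2 to Idh3a within a library does not depend on how libraries are scaled. It was 0.709 in the Pkm2-/- library and 1.0101 in the wild type library, 1.42-fold lower. Idh3a had a larger ratio between the libraries than Idh3b and Idh3g, so the contrast is smaller against either of those.

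From oxoglutarate to oxaloacetate, 7 of 8 genes had log2 ratios above 0. Ogdh, the decarboxylating component of the oxoglutarate dehydrogenase complex, stood at 98.3 FPKM in the Pkm2-/- library and 87.4 FPKM in the wild type library, 1.13-fold higher. Dlst, its succinyltransferase core, stood at 76.8 FPKM in the Pkm2-/- library and 59.5 FPKM in the wild type library, 1.29-fold higher with an interval of 1.24 to 1.35. In both dehydrogenase complexes the gene of the acyltransferase core (Dlat, Dlst) and the shared Dld therefore had larger ratios than the gene of the listed decarboxylating subunit (Pdhb, Ogdh).

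Succinyl-CoA synthetase pairs a common alpha subunit, Suclg1, with a beta subunit that sets which nucleotide is made, Suclg2 for GTP and Sucla2 for ATP. Suclg1 stood at 172 FPKM in the Pkm2-/- library and 165 FPKM in the wild type library, 1.05-fold higher, a difference whose sign turned with equal library medians or upper quartiles. Suclg2 stood at 126 FPKM in the Pkm2-/- library and 138 FPKM in the wild type library, 1.10-fold lower with an interval of 1.06 to 1.13. Sucla2 stood at 46.0 FPKM in the Pkm2-/- library and 37.3 FPKM in the wild type library, 1.23-fold higher with an interval of 1.16 to 1.32. The beta subunit genes thus lay on opposite sides of 1, and Suclg2 exceeded Sucla2 by 2.74-fold in the Pkm2-/- library and by 3.71-fold in the wild type library. Of the 31-base words of the longest Suclg2 transcript, 28.1% occur in other genes, mainly Gm15163, which was listed at 0.0344 FPKM in the Pkm2-/- library and 0.191 FPKM in the wild type library.

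Fumarase and the malate dehydrogenases followed the rest of the cycle. Fh1, which hydrates fumarate to malate, stood at 59.1 FPKM in the Pkm2-/- library and 49.5 FPKM in the wild type library, 1.19-fold higher. Mdh2 was 1.252-fold higher in the Pkm2-/- library, with an interval of 1.209 to 1.297. Mdh1, the cytosolic form that works in the malate-aspartate shuttle, stood at 179 FPKM in the Pkm2-/- library and 160.3 FPKM in the wild type library, 1.12-fold higher. The Mdh1 level was 0.814 of the Mdh2 level in the Pkm2-/- library and 0.912 in the wild type library.

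**Figure D2:**
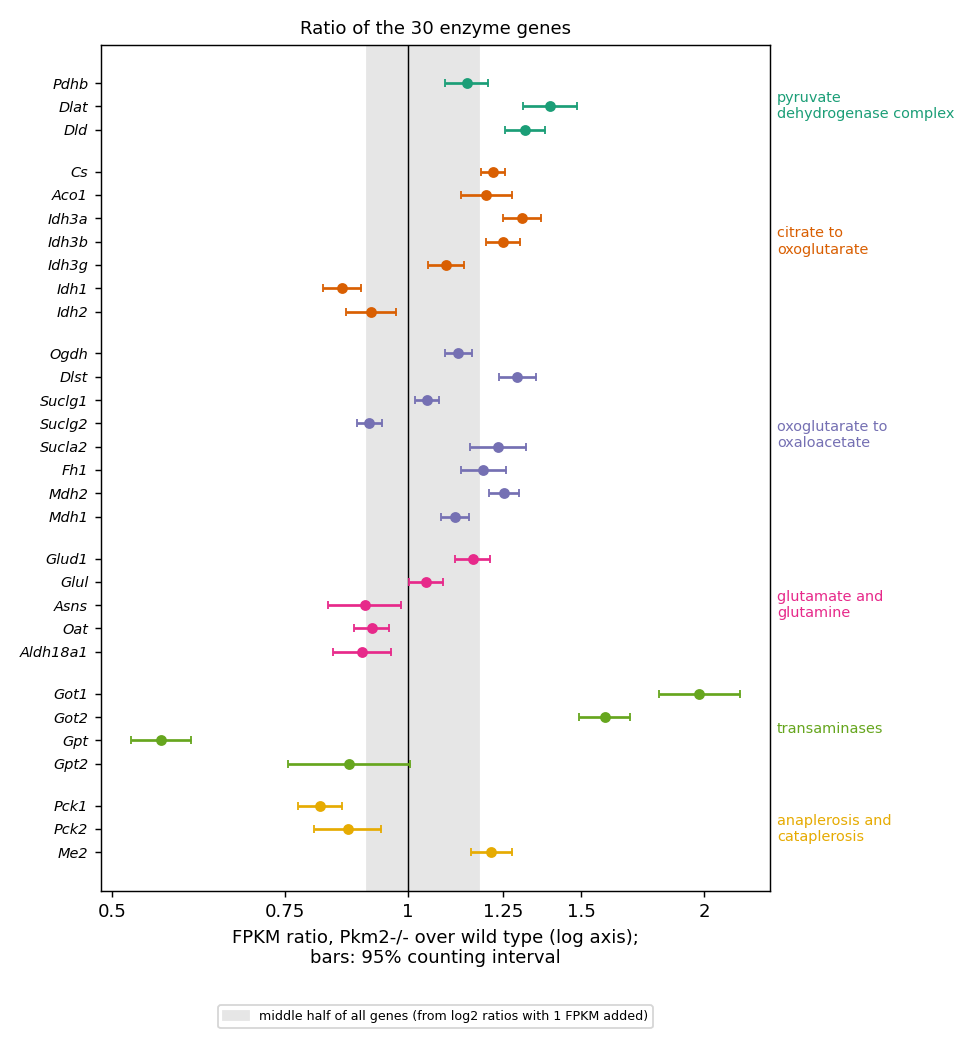
Ratio of FPKM in the Pkm2-/- library over the wild type library (log axis) for each gene, with 95% counting intervals that cover counting error only, and a grey band from the lower to the upper quartile of all genes. Got1 (1.98), Got2 (1.58) and Gpt (0.561) lie farthest from 1, and the cycle genes lie mostly between 1.05 and 1.39.

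Transaminases move amino groups between amino acids and cycle intermediates, and this was the group with the widest spread. Got1, the cytosolic aspartate transaminase (chr19:43499752-43524605, GRCm38, minus strand), stood at 32.2 FPKM in the Pkm2-/- library and 16.3 FPKM in the wild type library, 1.98-fold higher with an interval of 1.80 to 2.17. Got2, its mitochondrial partner in the malate-aspartate shuttle (chr8:95864134-95888547, minus strand), stood at 56.1 FPKM in the Pkm2-/- library and 35.4 FPKM in the wild type library, 1.58-fold higher with an interval of 1.49 to 1.68. Gpt, the cytosolic alanine transaminase (chr15:76695716-76699686, plus strand), stood at 21.9 FPKM in the Pkm2-/- library and 38.9 FPKM in the wild type library, 1.78-fold lower with an interval of 1.66 to 1.91. Both aspartate transaminase genes were thus on the high side and the cytosolic alanine transaminase on the low side. Among all 12429 genes, 98.4% had a lower log2 ratio than Got1, 96.5% a lower one than Got2 and 2.90% a lower one than Gpt. In the same comparison all 7 absorptive colonocyte markers were lower and all 7 proliferation markers higher, and their part in these ratios was not tested.

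Gpt2 was close in the libraries, at the levels given above, and its ratio of 0.871 had an interval of 0.754 to 1.005, the only one of the 30 to include 1. The interval of Glul came close to 1, at 1.002 to 1.085. Within a library, Got1 exceeded Gpt by 1.47-fold in the Pkm2-/- library and was 0.419 of it in the wild type library, so the order of these cytosolic transaminases differed between the libraries. Got2 exceeded Gpt2 by 11.3-fold in the Pkm2-/- library and by 6.23-fold in the wild type library. The Got2 value needs care, because 57.0% of the 31-base words of its longest transcript also occur in transcripts of other genes, mainly Gm10874. Gm10874 itself was listed at 0.102 FPKM in the Pkm2-/- library and 0.0449 FPKM in the wild type library. Separately, 9.0% of the exonic bases of Got2 overlap Gm45760 on the opposite strand, and the labels do not state how strand was used in the counting. Got1 and Gpt shared no such word with another gene.

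**Figure D3:**
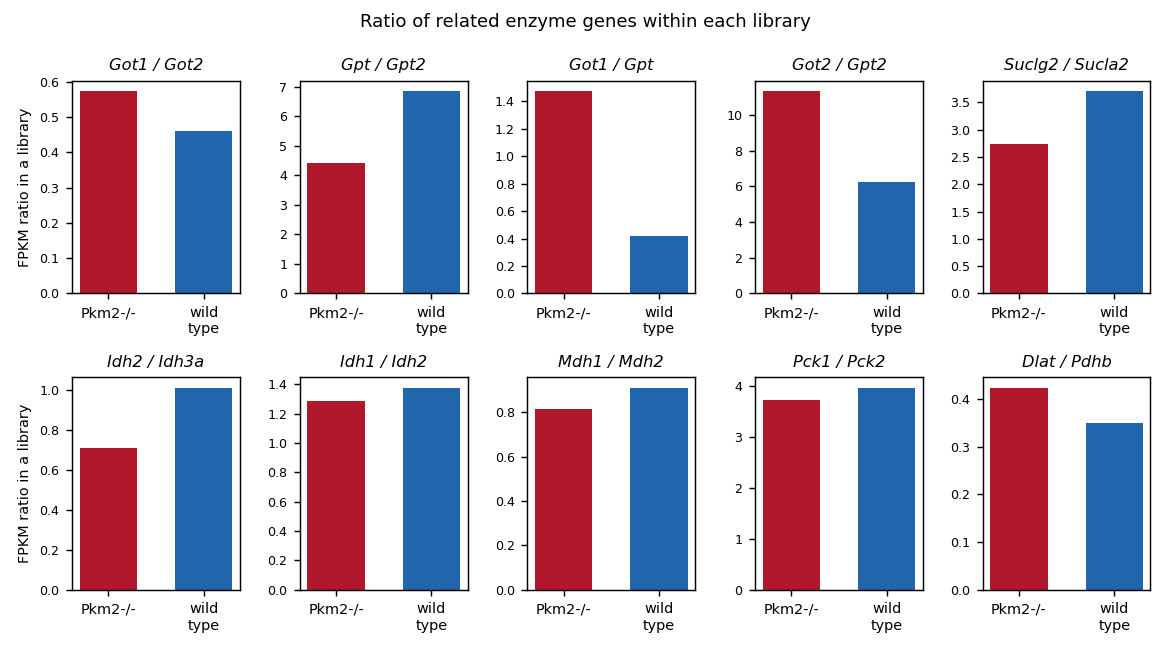
FPKM ratio of related enzyme genes within the Pkm2-/- library (left bar) and the wild type library (right bar), with 1 library each and each axis starting at 0. The ratio of Got1 to Gpt is 1.47 in the Pkm2-/- library and 0.419 in the wild type library, while Idh1 to Idh2 is 1.29 in the Pkm2-/- library and 1.38 in the wild type library.

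Promoter sequences were compared because Got1, Got2 and the asparagine and phosphoenolpyruvate enzymes below differed in direction. RefSeq promoters on GRCm38.p6 were found for 27 of the 30 genes, 33 promoters in all, and the 250 bases before each start were searched on both strands for 5 motifs. The ATF4 composite element, TGATGNAA, occurred in 9.09% of the 33 promoters and in 3.45% of all 32851 promoters of that length, namely in those of Got1, Asns and Pck2. The promoters below are shown because Got1, Asns and Pck2 hold these letters, given in capitals on whichever strand they lie, and Got2 does not. They are 5′ to 3′ on the strand of the gene, at chr19:43524606-43524855 (minus) for Got1, chr8:95888402-95888651 (minus) for Got2, chr6:7693210-7693459 (minus) for Asns and chr14:55540016-55540265 (plus) for Pck2.
Got1: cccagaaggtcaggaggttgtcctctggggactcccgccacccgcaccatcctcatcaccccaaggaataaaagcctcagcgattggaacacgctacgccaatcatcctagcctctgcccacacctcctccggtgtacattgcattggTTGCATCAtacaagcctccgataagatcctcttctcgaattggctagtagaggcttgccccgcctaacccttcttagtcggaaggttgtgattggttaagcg
Got2: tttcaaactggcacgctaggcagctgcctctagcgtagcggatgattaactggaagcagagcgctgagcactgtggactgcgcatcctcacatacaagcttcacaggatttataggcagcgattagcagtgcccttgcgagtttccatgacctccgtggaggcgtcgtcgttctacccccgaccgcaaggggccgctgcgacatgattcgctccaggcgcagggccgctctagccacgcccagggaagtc
Asns: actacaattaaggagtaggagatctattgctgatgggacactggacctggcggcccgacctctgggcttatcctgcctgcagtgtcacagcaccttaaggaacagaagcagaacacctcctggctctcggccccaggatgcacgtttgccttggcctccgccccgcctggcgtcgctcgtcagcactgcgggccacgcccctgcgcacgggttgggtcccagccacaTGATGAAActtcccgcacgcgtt
Pck2: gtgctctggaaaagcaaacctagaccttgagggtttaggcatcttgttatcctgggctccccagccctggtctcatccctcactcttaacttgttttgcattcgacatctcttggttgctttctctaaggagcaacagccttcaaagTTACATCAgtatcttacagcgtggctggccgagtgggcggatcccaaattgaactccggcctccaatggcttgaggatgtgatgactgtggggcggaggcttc
The capitals begin 102 bases before the start of Got1, 23 before that of Asns and 103 before that of Pck2. These starts are those of RefSeq, and the GENCODE genes of Got2 and Asns begin farther upstream. Of the 250 bases printed, 146 of Got2 and 45 of Asns, with the capitals of Asns, thus lie inside the annotated gene. The capitals mark that motif alone and overlap no match of the other motifs searched. The 3 genes that share the letters did not share a direction, with FPKM ratios of 1.98 for Got1, 0.903 for Asns and 0.868 for Pck2. None of the 33 promoters held the estrogen-related receptor element TNAAGGTCA. It occurred in 1.14% of all promoters, a share too low for its absence from 33 to mark a difference. The core of the NRF1 site, CGCANGCG, known from many genes of mitochondrial proteins, occurred in 24.2% of the 33 and in 6.76% of all. This core was chosen after the values of a longer form had been seen, which adds a G before it and a C after it and occurred in 6.06% of the 33 and in 3.74% of all. The contrast with all promoters thus depends on which form is searched. The 8 promoters with the core belonged to 7 genes, Aldh18a1, Asns, Glud1, Idh3g, Ogdh, Pdhb and Sucla2, whose ratios lay on both sides of 1. Overlapping start windows of Ogdh gave the same match more than once. The cyclic AMP response element TGACGTCA occurred in promoters of Mdh2 and Ogdh, 12.1% against 1.55%, and the MYC E-box CACGTG in those of Aldh18a1 and Ogdh, 12.1% against 6.02%. Ogdh gave 3 start windows to each of these last counts, all overlapping for the cyclic AMP element and 2 of them for the E-box, and a match or its absence is a description of the letters alone.

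Glutamine and glutamate enzymes differed little. Glud1, the glutamate dehydrogenase that releases oxoglutarate, stood at 74.4 FPKM in the Pkm2-/- library and 64.0 FPKM in the wild type library, 1.16-fold higher. Glul, the glutamine synthetase, stood at 88.8 FPKM in the Pkm2-/- library and 85.1 FPKM in the wild type library, 1.04-fold higher, a difference whose sign turned with equal library medians or upper quartiles. For Glul, 24.2% of the 31-base words of the longest transcript occur in other genes, and for Glud1 13.0%.

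The remaining genes of this group, which serve asparagine, ornithine and proline metabolism, were all slightly lower. Asns, which makes asparagine with glutamine as nitrogen donor, stood at 25.3 FPKM in the Pkm2-/- library and 28.0 FPKM in the wild type library, 1.11-fold lower with an interval of 1.02 to 1.21. Oat, the ornithine aminotransferase, stood at 102 FPKM in the Pkm2-/- library and 111 FPKM in the wild type library, 1.09-fold lower. Aldh18a1, which commits glutamate to proline synthesis, stood at 22.6 FPKM in the Pkm2-/- library and 25.2 FPKM in the wild type library, 1.11-fold lower. Aldh18a1 and Oat kept nearly the same proportion, 0.221 in the Pkm2-/- library and 0.226 in the wild type library.

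Of the enzymes that exchange cycle acids with pyruvate and phosphoenolpyruvate, both phosphoenolpyruvate carboxykinase genes were lower. Pck1, the cytosolic form known from gluconeogenesis, stood at 47.9 FPKM in the Pkm2-/- library and 58.8 FPKM in the wild type library, 1.23-fold lower with an interval of 1.17 to 1.29. Pck2, the mitochondrial form, stood at 12.9 FPKM in the Pkm2-/- library and 14.8 FPKM in the wild type library, 1.15-fold lower with an interval of 1.066 to 1.246. Me2, the mitochondrial malic enzyme that turns malate into pyruvate, stood at 56.3 FPKM in the Pkm2-/- library and 46.3 FPKM in the wild type library, 1.22-fold higher with an interval of 1.16 to 1.28. The carboxykinases kept their proportion, with Pck1 at 3.72-fold the level of Pck2 in the Pkm2-/- library and 3.96-fold in the wild type library.

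A division of the 30 genes was drawn after their values were seen and is given as a description. It counted 14 genes as the mitochondrial cycle and its pyruvate entry. Idh2, the mitochondrial NADP-linked form with a log2 ratio of -0.12, was left out of these and put with the other 16. Of the 14 genes, 13 had log2 ratios above 0, all but Suclg2, and their median log2 ratio was 0.29. Among all genes averaging 1 FPKM or more, 58.8% lay above 0 and the median was 0.06. Of the other 16 genes, 7 had log2 ratios above 0 and the median was -0.12. By compartment, 16 of 22 genes of mitochondrial enzymes lay above 0 with a median of 0.23, and 4 of 8 genes of enzymes found mainly in the cytosol with a median of -0.04. Summed levels of the mitochondrial genes were 1876 FPKM in the Pkm2-/- library and 1644 FPKM in the wild type library, while those of the cytosolic genes were close, at 505.5 FPKM in the Pkm2-/- library and 506 FPKM in the wild type library.

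Other genes of the same pathways were set beside the 30. Over all genes averaging 1 FPKM or more, 58.8% lay above 0 and the median was 0.06. On the scale of FPKM + 1, 4.46% of all genes were at least 1.5-fold higher and 5.29% lower. Of 9 measured TCA genes outside the list, 7 lay above 0 and the median was 0.09. Dhtkd1, which oxidises oxoadipate from lysine breakdown, was the 1 gene at least 1.5-fold apart, at 2.14 FPKM in the Pkm2-/- library and 4.37 FPKM in the wild type library. Of 14 genes of pyruvate entry and its control, 7 lay above 0 and the median was -0.0020. Pdk4, a kinase that switches pyruvate dehydrogenase off, was the 1 gene at least 1.5-fold apart on the scale of FPKM + 1, at 2.03 FPKM in the Pkm2-/- library and 6.29 FPKM in the wild type library. Pdk4 was the lowest in level of the kinase genes, and the others did not share a direction. In the Pkm2-/- and the wild type library, Pdk1 stood at 19.8 and 16.3 FPKM, Pdk3 at 16.2 and 12.6, and Pdk2 at 9.42 and 13.5. By plain FPKM ratio 2 more genes of this list were past 1.5-fold, both lower. Pdp1, a phosphatase that acts opposite to these kinases, stood at 3.60 FPKM in the Pkm2-/- library and 5.87 FPKM in the wild type library. Lipt1, a lipoyl transferase, stood at 1.80 FPKM in the Pkm2-/- library and 3.03 FPKM in the wild type library.

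Of 10 other anaplerosis and cataplerosis genes, 9 had log2 ratios below 0, with a median of -0.21 and none 1.5-fold apart on the scale of FPKM + 1. By plain ratio Me3 was 1.76-fold lower, and the pyruvate carboxylase gene Pcx 1.502-fold lower. The log2 ratios ran from that of the mitochondrial malic enzyme Me3, at 1.38 FPKM in the Pkm2-/- library and 2.43 FPKM in the wild type library, to that of the ATP citrate lyase Acly, at 93.8 FPKM in the Pkm2-/- library and 70.1 FPKM in the wild type library. Of 15 other glutamine and proline genes, 10 lay above 0, with a median of 0.11. The acetylglutamate synthase Nags was at least 1.5-fold lower, at 4.82 FPKM in the Pkm2-/- library and 7.97 FPKM in the wild type library. The carriers that move cycle acids and aspartate across the inner membrane had a median of -0.04, with 3 of 7 above 0 and none 1.5-fold apart. They ran from the glutamate carrier Slc25a22, at 28.0 FPKM in the Pkm2-/- library and 40.3 FPKM in the wild type library, to the aspartate-glutamate carrier Slc25a13, at 17.0 FPKM in the Pkm2-/- library and 12.4 FPKM in the wild type library.

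The promoters of Asns, Got1 and Pck2 hold the ATF4 letters, and genes known as ATF4 targets were set beside them. Of 23 measured, 14 lay above 0, against 58.8% of all genes, and the median was 0.08, against 0.06, so the list lay close to all genes. On the scale of FPKM + 1, 2 were at least 1.5-fold higher and 1 lower, against 4.46% and 5.29% of all genes. The higher ones were the serine synthesis genes Psat1, at 12.3 FPKM in the Pkm2-/- library and 5.97 FPKM in the wild type library, and Phgdh, at 25.1 FPKM in the Pkm2-/- library and 15.3 FPKM in the wild type library. Psph, of the same pathway, was not among them, at 3.07 FPKM in the Pkm2-/- library and 2.76 FPKM in the wild type library. By plain ratio Chac1, a glutathione-degrading enzyme, was also past 1.5-fold, at 1.85 FPKM in the Pkm2-/- library and 1.15 FPKM in the wild type library. The lipoprotein receptor Vldlr was the lower one, at 4.41 FPKM in the Pkm2-/- library and 7.35 FPKM in the wild type library. Atf4 itself was equal, at 101 FPKM in each library.

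Respiratory chain genes, the nearest group in function, gave a median close to that of the 30. Log2 ratios were above 0 for 45 of 51 genes, against 58.8% of all genes, and the median was 0.17. Of the 51, 1 gene, Ndufa4, was at least 1.5-fold higher, at 163 FPKM in the Pkm2-/- library and 103 FPKM in the wild type library. Of 15 glycolysis genes, 7 lay above 0, with a median of -0.01, and the aldolase Aldoc was at least 1.5-fold lower, at 5.40 FPKM in the Pkm2-/- library and 8.75 FPKM in the wild type library. By plain ratio the lactate dehydrogenase gene Ldhb was past that limit too, 1.51-fold lower. No test of these differences between lists was possible with 1 library per genotype.

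**Figure D4:**
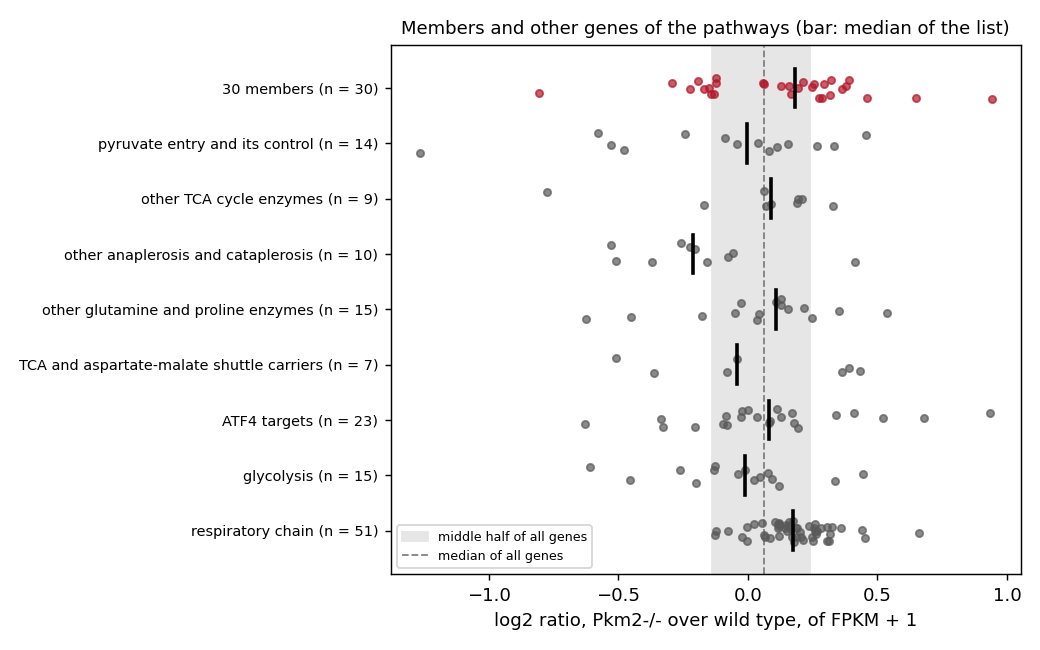
Log2 ratio, Pkm2-/- over wild type, of FPKM + 1 for the 30 enzyme genes and for the measured genes of the other lists (1 point per gene, black bar at the median of the list), with a grey band between the quartiles of all genes and a dashed line at their median of 0.06. The median is 0.18 for the 30 genes, 0.17 for the respiratory chain and -0.21 for the other anaplerosis and cataplerosis genes.

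Markers of cell states and other cell types differed between the same libraries. All 7 absorptive colonocyte markers were lower, summing to 3658.5 FPKM in the Pkm2-/- library and 6032 FPKM in the wild type library. Car1 supplied most of these sums, and the ratios ran from Guca2a, 1.43-fold lower, to Aqp8, 5.29-fold lower. All 7 proliferation markers were higher, summing to 336 FPKM in the Pkm2-/- library and 233 FPKM in the wild type library. Of 7 epithelial markers 6 were higher, with sums of 5428 FPKM in the Pkm2-/- library and 4563 FPKM in the wild type library. Of 7 goblet cell markers 5 were lower, with sums of 10623 FPKM in the Pkm2-/- library and 11637 FPKM in the wild type library. Muc2 supplied most of the goblet sums, at 7504 FPKM in the Pkm2-/- library and 7418 FPKM in the wild type library. Goblet ratios ran from Clca1, 2.61-fold lower, to Spdef, 1.09-fold higher. T cell markers summed to 75.8 FPKM in the Pkm2-/- library and 16.9 FPKM in the wild type library, with 7 of 7 measured ones higher. B and plasma cell markers summed to 34.6 FPKM in the Pkm2-/- library and 10.004 FPKM in the wild type library, with 4 of 4 measured ones higher. Macrophage and dendritic cell markers summed to 15.0 FPKM in the Pkm2-/- library and 8.33 FPKM in the wild type library, with 4 of 6 measured ones higher.

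Neutrophil markers came almost wholly from Ly6g and summed to 13.2 FPKM in the Pkm2-/- library and 25.5 FPKM in the wild type library, while S100a8, S100a9 and Mpo had no entry in either library. Erythrocyte markers summed to 1.91 FPKM in the Pkm2-/- library and 24.5 FPKM in the wild type library, with 4 of 4 measured ones lower. Fibroblast, smooth muscle and endothelial markers summed to at most 2.33 FPKM in the Pkm2-/- library and at most 4.34 FPKM in the wild type library. Of these, Lum and Actg2 had no entry in either library, while Pdgfra, Des, Cnn1 and Emcn had none in the Pkm2-/- library, and Cdh5 had none in the wild type library. The part of these shifts in the enzyme ratios was not tested. In such bulk samples, fewer cells of a type and less RNA per cell cannot be told apart.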

How the data were processed

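The values were FPKM as the authors deposited them, 1 value per Ensembl gene with a symbol and a locus. The files have no header, so the unit was read from the values and the tools. Per the submitters' processing notes, the software was Cufflinks 2.2.1 with Cuffdiff (1.3.0, 2.2.1), TopHat2 2.1.1 and Bowtie2 2.2.9, with no role or order given, and the build is named as mm8. GENCODE M21 held 99.4% of the 22384 gene IDs, and 99.96% of the loci of these overlapped their gene on GRCm38, so coordinates were taken from there. Per the labels' protocols, frozen cells were extracted with Trizol and a messenger RNA kit made the libraries. FPKM is scaled to the mapped total, so abundant transcripts can shift all other values. Files list values above 0 alone, and an unlisted gene was set to 0.

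Values of rows sharing a symbol were summed. The log2 ratio was log2((Pkm2-/- FPKM + 1)/(wild type FPKM + 1)), which understates the difference of low genes; folds of single genes are plain FPKM ratios. Genes averaging 1 FPKM or more entered counts. A single library per genotype allowed no test, and genes were counted past a log2 ratio of 0.3219 and past 1.5-fold on that scale, in each direction. The value of 1 fragment was the lowest main peak of FPKM times length in single-transcript genes over 1.5 kb (0.0466 FPKM kb for Pkm2-/- and 0.0531 for wild type). Clopper-Pearson intervals used fragments implied by it and the longest transcript. The method was tested on simulated data with 1 known length per gene, so that test did not cover the choice of transcript. Where shorter transcripts dominate, the longest one overstates the fragments, and the intervals are too narrow. Fragments are not independent molecules, so intervals cover counting error only. All 30 genes are described, and of other lists the genes past 1.5-fold or, with none, the extremes. The members, lists, motifs and within-library ratios were chosen with earlier results of these data known, including that TCA genes were slightly higher, so no list gives independent support. Python 3.11.15, numpy 2.4.6, pandas 2.3.3, scipy 1.17.1 and matplotlib 3.10.9 were used.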

Additional observations from a re-analysis of the deposited data

How the results depend on the processing

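The results rest on 1 library per genotype. No paired analysis was possible because each genotype has a single library, and none could be left out in turn. Counts of the 30 genes above 0 were between 18 and 20 under all alternatives tried, and Got1, Got2, Gpt and all cycle genes but Suclg1 kept their side of 0. Suclg1 and Glul turned to -0.02 and -0.024 with equal library medians and to -0.001 and -0.005 with equal upper quartiles. The median of all genes, 0.06, was -0.013 with equal medians, 0.004 with equal upper quartiles and 0.13 with values summing to 1000000.

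With equal medians the median of the 30 genes was 0.098, and 3 were higher and 2 lower by at least 0.3219 (log2), with Got1 the 1 gene at least 1.5-fold higher. The list medians were then -0.072 for pyruvate entry, -0.291 for other anaplerosis, 0.027 for other glutamine and proline genes, -0.112 for carriers, 0.001 for ATF4 targets, -0.093 for glycolysis and 0.09 for the respiratory chain. With equal upper quartiles 4 of the 30 were higher by at least 0.3219 and 2 lower. With values summing to 1000000 the median of the 30 was 0.259 and 13 were higher by at least 0.3219. The list medians were then 0.166 for other TCA genes, 0.185 for other glutamine and proline genes, 0.025 for carriers, 0.161 for ATF4 targets, 0.065 for glycolysis and 0.251 for the respiratory chain. With a filter at a mean of 5 FPKM they were 0.098 for pyruvate entry, 0.189 for other TCA genes and 0.025 for glycolysis, since fewer genes entered. Scalings multiply every gene of a library by 1 factor, which sets these shifts. Pseudocounts of 0.1 and 5, no filter, scaling without mitochondrial transcripts and their nuclear copies, the highest row of a symbol and the mean over the 30 genes in place of the median left each of these medians within 0.068 of its value, the median half-width of the counting intervals on the log2 scale, and each count within 1.5 times. Of the single-gene log2 ratios under alternatives, 219 shifted by less than the half-width of the gene's counting interval. Another 47 shifted by more, and 4, those of Suclg1 and Glul above, changed sign. Among the 219 are all values with no filter, with the filter at a mean of 5 FPKM and with the highest row of a symbol. These settings left all 30 ratios unchanged, and a filter cannot alter the ratio of a gene. Depth limits Gpt2 most, with 386 fragments in the Pkm2-/- library and 390 in the wild type library.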
